A study of Mus musculus with 76 samples.

Results

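The genes described here encode the machinery that copies DNA and prepares a cell for S phase. They were 45 members chosen by name and matched by gene identifier, out of 55487 genes in the deposited tables. The series holds 76 bulk RNA sequencing libraries of mouse, of which 70 were analysed and 6 of inguinal lymph node were not used here. Libraries with the genotype label Sod1Mut, called SOD1 below, carry the G93A mutant of human SOD1, a transgene that causes motor neuron disease in mice. Libraries labelled WT are wild type, although the strain label reads SOD1-G93A for both. Thymus was digested, and stained cells were sorted at d30 and d120 into cortical (cTEC, 11 libraries) and medullary (mTEC, 12) epithelium, Treg (regulatory T cells, 12) and CD4 T cells (CD4, 11). Each group of genotype, population and day had 3 libraries, except WT cTEC and WT CD4 of d30 with 2. Whole thymus of d120 had 3 libraries per genotype. Cultures with the cell type label Treg, the tissue label Treg_invitro and Tregdiff in their titles had 3 libraries per genotype at T0, without activation, and at T2 and T20 of activation, whose unit of time the labels do not give. No label says whether the libraries of a group came from separate animals, so p-values measure the spread between these libraries, which may be technical. The promoter driving the transgene is not given in the sources used here.

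Replication starts at origins. The origin recognition complex (Orc1, Orc6) with Cdc6 and Cdt1 loads the Mcm2 to Mcm7 helicase in G1, and in S phase Mcm10, Cdc45 and the GINS complex turn it into a moving fork. There polymerase alpha and primase lay down primers, polymerases delta and epsilon extend them, and Pcna, its loader (Rfc subunits), Rpa, Fen1 and Lig1 complete the strands. Rrm1, Rrm2, Tyms and Tk1 supply nucleotides, and Uhrf1, Dnmt1 and the Chaf1 subunits copy the chromatin state. Many of these genes are driven at the G1 to S transition by E2F factors bound with a DP partner such as Tfdp1. In the thymus, immature thymocytes divide most, and mature T cells and epithelium divide less. In bulk samples, fewer cells of a type and less RNA per cell cannot be told apart.

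Because the members move together in several comparisons, the letters of the E2F consensus were looked for in RefSeq promoter windows (GRCm38.p6). The search took TTTCCCGC, TTTCGCGC, TTTGCCGC and TTTGGCGC on both strands, in windows from 250 bases before to 50 bases after a gene's start, and counted overlapping matches separately. The windows matched 38 of the 45 members by symbol. At least 1 match stood in a window of 17 of these 38 genes (44.7%), against 704 of all 27025 genes with a window (2.61%). By window, the share was 18 of 47 (38.3%) against 744 of 32851 windows of the same length (2.26%). Among 20 genes of mitosis, 17 had a window and 1 of them a match. The 200 bases before the start are shown for 6 members on which the results turn, 5′ to 3′ on the gene's strand, with matching letters in capitals. Mcm2 (chr6:88898781-88898980, minus strand), Mcm5 (chr8:75109309-75109508, plus strand) and Mcm6 (chr1:128359706-128359905, minus strand) encode helicase subunits that were lower with age in both T cell populations. Pola1 (chrX:93632156-93632355, minus strand) had the lowest change with age in Treg, Tfdp1 (chr8:13338551-13338750, plus strand) led in mTEC, and Rpa1 (chr11:75348384-75348583, minus strand) was the 1 member called lower in activated cultures.
Mcm2: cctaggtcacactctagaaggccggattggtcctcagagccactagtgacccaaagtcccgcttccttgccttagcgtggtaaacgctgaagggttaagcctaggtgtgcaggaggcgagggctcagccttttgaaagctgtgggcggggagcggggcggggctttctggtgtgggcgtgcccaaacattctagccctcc
Mcm5: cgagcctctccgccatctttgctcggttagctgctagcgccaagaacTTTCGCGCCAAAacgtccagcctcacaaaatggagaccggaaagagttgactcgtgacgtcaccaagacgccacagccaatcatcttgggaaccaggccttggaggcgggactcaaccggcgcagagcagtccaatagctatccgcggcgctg
Mcm6: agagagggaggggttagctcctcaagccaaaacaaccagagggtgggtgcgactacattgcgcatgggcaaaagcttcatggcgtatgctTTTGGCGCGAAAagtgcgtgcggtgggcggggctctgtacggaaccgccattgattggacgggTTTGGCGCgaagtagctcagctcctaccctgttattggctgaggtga
Pola1: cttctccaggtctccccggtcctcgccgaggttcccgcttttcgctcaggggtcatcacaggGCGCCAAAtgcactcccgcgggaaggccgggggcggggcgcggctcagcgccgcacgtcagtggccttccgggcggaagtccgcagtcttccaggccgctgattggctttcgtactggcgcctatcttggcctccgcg
Tfdp1: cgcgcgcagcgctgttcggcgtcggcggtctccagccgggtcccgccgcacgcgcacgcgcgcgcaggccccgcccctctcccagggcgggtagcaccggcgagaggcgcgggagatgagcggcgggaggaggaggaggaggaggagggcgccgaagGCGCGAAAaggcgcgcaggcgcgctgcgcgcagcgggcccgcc
Rpa1: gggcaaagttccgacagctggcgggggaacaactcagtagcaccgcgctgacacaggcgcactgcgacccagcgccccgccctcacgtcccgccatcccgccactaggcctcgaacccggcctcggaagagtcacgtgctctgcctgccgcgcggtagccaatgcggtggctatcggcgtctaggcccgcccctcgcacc
Counted back from the base before the start as -1, matches began at -153 and -149 in Mcm5, at -110, -106 and -47 in Mcm6, at -138 in Pola1 and at -43 in Tfdp1. The pair in Mcm5 and the first 2 in Mcm6 overlap on opposite strands. Mcm2 and Rpa1 held none of these letters in this window. The 17 genes with a match had a median log2 change with age of -0.64 in Treg, against -0.28 for the 21 without. The medians were -1.32 and -1.01 in CD4 and 2.47 and 1.89 at T2 of culture. A match is a description, neither a site nor a cause.

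Total counts per sorted or cultured library ran from 15135 (SOD1 mTEC d30 1) to 36919936, and 6 libraries had under 300000 counts or under 8000 genes detected. Sod1 was higher in every SOD1 library than in every WT library in 11 of 12 sets of tissue, day or culture time, the exception being mTEC of d30. Levels below are CPM, the counts scaled to a common library size with TMM factors. Each fit scaled its own libraries, so levels need not match the log2 changes printed beside them. In CD4, mean Prim2 was 49.3 CPM at d30 and 47.9 at d120, although its fitted change was positive. Of the defining markers, the thymoproteasome gene Psmb11 had a mean of 1080 CPM in cTEC of d30 and 218 at d120, Aire 918 and 1162 CPM in mTEC, and Foxp3 52.3 and 132 CPM in Treg against 18.4 and 12.6 in CD4. At d30 the Treg markers Il2ra (640 against 20.8 CPM), Ctla4 (236 against 78.5) and Tnfrsf4 (87.0 against 23.1) were also higher in Treg. Means of Ikzf2 (203 against 328 CPM), Tnfrsf18 (121 against 155), Tnfrsf9 (88.0 against 192) and Izumo1r (26.3 against 39.1) were higher in CD4. Those of Ikzf2, Tnfrsf18 and Tnfrsf9 were higher in CD4 at d120 too. Cd8a, a marker of double-positive and CD8 cells, was at 301 and 200 CPM in CD4 and at 150 and 156 in Treg. Mean Cd4 was 179 and 93.9 CPM in CD4 and 187 and 118 in Treg. Its level therefore did not set CD4 apart from Treg, and the populations are called by their labels. All 10 markers of double-positive thymocytes were detected in Treg, where their sum was 2306 to 3259 CPM at d30 and 895 to 1456 at d120. That sum was 1087 to 1876 and 543 to 891 in CD4, and 737 to 1364 and 23.4 to 227 in cTEC. The 7 leukocyte markers summed to 1652 to 2294 CPM in cTEC of d30 and to 43.4 to 383 at d120. These sums were lower at d120, as were most members below, and their part in the members' change was not tested.

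At d30, replication genes were more abundant in T cells than in epithelium. The median CPM over the 45 members of a library was 77.2 to 98.4 in Treg and 79.3 to 102 in CD4, against 41.9 to 59.0 in cTEC and 0 to 33.1 in mTEC. The 0 belongs to the mTEC library of 15135 counts. At d120 the medians were 62.3 to 119 in Treg, 33.7 to 57.9 in CD4, 0 to 24.7 in cTEC and 15.9 to 23.6 in mTEC. Genes can be compared with each other only per kilobase of exon. On that scale the helicase subunit Mcm6 (142 ± 14.6 CPM per kb, SD, n = 6) and the sliding clamp Pcna (133 ± 15.5) led in Treg of d30, within their spread of each other. In CD4 of d30 the order was Pcna (159 ± 36.7), Mcm6 (123 ± 5.42) and the ribonucleotide reductase subunit Rrm2 (122 ± 13.7, n = 5), with neighbours within their spread. Rrm2 (98.6 ± 26.0 CPM per kb, n = 5) and Pcna (77.1 ± 10.9) led in cTEC of d30, within the spread of Rrm2. In mTEC the leader was Tfdp1, at 108 ± 26.2 at d30 and 76.1 ± 23.5 at d120 (n = 6 each), ahead of Pcna at 31.4 ± 7.56 and 39.6 ± 6.71. Whole thymus, given in TPM and so already per length, held 416 ± 55.9 TPM of Pcna, 202 ± 18.3 of Mcm7 and 201 ± 27.9 of Rrm2 (n = 6).

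**Figure D1:**
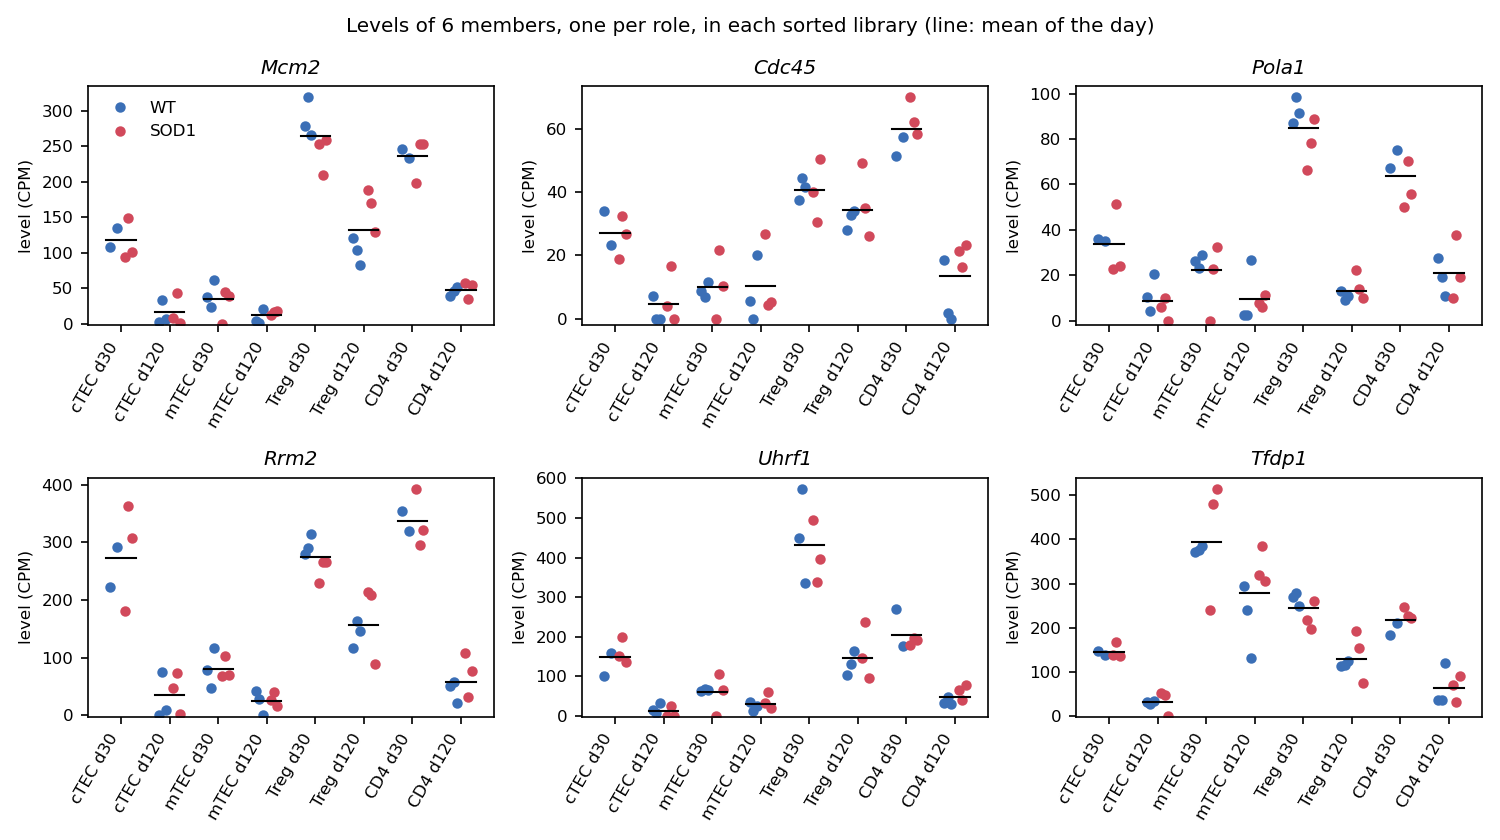
Level of 6 members (Mcm2, Cdc45, Pola1, Rrm2, Uhrf1, Tfdp1) in CPM on the y axis in every sorted library, by population and day on the x axis, with WT in blue, SOD1 in red and a line at the mean of each day. The median of Mcm2 is 246 CPM in CD4 of d30 and 48.5 at d120.

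Changes with age were taken as d120 against d30, averaged over genotypes. All sorted d30 columns end in a number with the prefix JL and all d120 columns in a plain number. A difference between these series cannot be told apart from age. In Treg, 18 members were lower and 5 higher at d120, and 22 did not pass an adjusted p of 0.05 (edgeR quasi-likelihood test, Benjamini-Hochberg adjustment). Of all 14824 genes tested, 13.8% were lower and 16.1% higher, 29.9% in either direction. The members' median log2 change was -0.34, against 0.01 for all genes. The lower group held the 6 helicase subunits Mcm2 to Mcm7 with Mcm10, the reductase subunits Rrm1 and Rrm2, and Uhrf1, Dnmt1 and the chromatin assembly subunit Chaf1a. It also held Pola1, Pold1, Lig1, Rpa1, Tfdp1 and the cyclin gene Ccne2. The higher group held Orc6, the licensing factor Cdt1, the GINS subunit Gins2, the primase subunit Prim2 and the clamp loader subunit Rfc3.

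Among licensing genes of Treg, Mcm2 was at 210.2 to 319 CPM (median 263) in the 6 libraries of d30 and 83.0 to 189 CPM (median 125) in the 6 of d120. Every d120 library lay below every d30 library. The log2 change (± SE) was -1.06 ± 0.088 (edgeR adjusted p = 1.08e-05), with Mcm4 at -1.01 ± 0.10, Mcm3 at -0.94 ± 0.12 and Mcm6 at -0.76 ± 0.10. Mcm5 had the smallest change of the 6 subunits, -0.33 ± 0.093 (edgeR adjusted p = 0.0177), and its days overlapped, with 204 to 307 CPM (median 240.0) at d30 and 156 to 292 CPM (median 185) at d120. Both licensing genes called upward act before or during helicase loading. Orc6, a small subunit of the origin complex, was at 47.5 to 67.2 CPM (median 62.6) at d30 and 70.3 to 123 CPM (median 81.3) at d120. Its days did not overlap, and it rose by 0.56 ± 0.16 (edgeR adjusted p = 0.0175). Cdt1 was at 37.3 to 63.2 CPM (median 46.3) and 50.2 to 133 CPM (median 66.6), with overlap, and rose by 0.66 ± 0.17 (edgeR adjusted p = 0.00983). Orc1 (-0.33 ± 0.19) and Cdc6 (-0.31 ± 0.24) did not pass. Orc6 lost its call without SOD1 d30 2 (0.51) or WT d30 2 (0.50).

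Subunits of polymerase alpha and primase went in different directions in Treg. The catalytic subunit Pola1 was at 66.3 to 98.4 CPM (median 87.9) at d30 and 9.27 to 22.2 CPM (median 11.9) at d120. The days did not overlap, and its change of -2.74 ± 0.17 (edgeR adjusted p = 4.22e-06) had the lowest value and the smallest p among the members. The accessory subunit Pola2 (-0.34 ± 0.14) and the small primase subunit Prim1 (-0.36 ± 0.14) did not pass. Prim2, the large primase subunit, was at 57.2 to 76.2 CPM (median 65.1) at d30 and 73.4 to 146 CPM (median 110.1) at d120. Its ranges overlapped only at their edges, and it rose by 0.70 ± 0.13 (edgeR adjusted p = 0.00166). Further along the fork, Pold1, the catalytic subunit of polymerase delta, changed by -0.79 ± 0.13, and Lig1, which seals Okazaki fragments, by -0.72 ± 0.12. Pcna, at -0.24 ± 0.10, did not pass. Rfc3 rose by 0.36 ± 0.11 (edgeR adjusted p = 0.0263), a call lost without the low-count filter and without SOD1 d120 1, WT d120 2, SOD1 d30 2, SOD1 d30 3, WT d30 2 or WT d30 3 (0.29 to 0.36). Of the helicase activators, Gins2 was at 45.3 to 92.5 CPM (median 64.8) and 57.5 to 149 CPM (median 113), with overlap. It rose by 0.67 ± 0.16 (edgeR adjusted p = 0.00611), and Mcm10 changed by -1.21 ± 0.30, while Cdc45 (-0.29 ± 0.17), Gins1 (0.01 ± 0.20) and Gins3 (-0.34 ± 0.60) did not pass.

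Nucleotide and chromatin genes of Treg were lower or did not pass. Uhrf1, which brings the maintenance methyltransferase to newly copied DNA, was at 335 to 574 CPM (median 422) at d30 and 95.2 to 238 CPM (median 139) at d120, without overlap. It changed by -1.57 ± 0.20 (edgeR adjusted p = 0.000156), and the methyltransferase gene Dnmt1 by -1.37 ± 0.14. Rrm2 was at 230.5 to 315 CPM (median 273) and 89.5 to 213 CPM (median 155), again without overlap, and changed by -0.85 ± 0.17 (edgeR adjusted p = 0.00294). Rrm1 changed by -1.18 ± 0.25, while Tyms (thymidylate synthase, -0.11 ± 0.19) and Tk1 (thymidine kinase, -0.02 ± 0.20) did not pass. Of the S phase entry genes, Tfdp1 was at 196 to 279 CPM (median 255) and 74.7 to 192 CPM (median 119), without overlap. It changed by -0.97 ± 0.15 (edgeR adjusted p = 0.000592) and Ccne2 by -0.93 ± 0.15, while E2f1 (-0.28 ± 0.12), E2f2 (-0.08 ± 0.11) and Ccne1 (0.09 ± 0.26) did not pass. In all, every d120 library lay below every d30 library in 12 of 45 members and above in 1 (Orc6), against 6.64% and 7.47% of all genes tested. Markers of B cells also differed between the days, with a sum of 32.2 to 84.6 CPM at d30 and 132 to 383 at d120, and their part was not tested.

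In CD4, 17 members were lower with age and 0 higher (edgeR adjusted p under 0.05), against 5.92% and 4.66% of 12479 genes tested, 10.6% in either direction. The median change was -1.03, against -0.02 for all genes. Mcm2 was at 198, 254 and 253 CPM in SOD1 and 246 and 233 in WT at d30 and at 35.4 to 57.9 CPM (median 48.5) in the 6 libraries of d120. The days did not overlap, and the change was -2.05 ± 0.25 (edgeR adjusted p = 0.00131). Mcm5 was at 289, 296 and 294 CPM in SOD1 and 302 and 283 in WT at d30 and 54.1 to 125 CPM (median 83.2) at d120, also apart, with a change of -1.48 ± 0.26 (edgeR adjusted p = 0.00599). Mcm3 changed by -1.71 ± 0.22, Mcm7 by -1.32 ± 0.22, Mcm6 by -1.31 ± 0.24 and the loader gene Cdc6 by -1.10 ± 0.32. The sixth helicase subunit, Mcm4, was at -0.97 ± 0.31, and Orc1 at -0.04 ± 0.44, Cdt1 at 0.46 ± 0.27 and Orc6 at 0.45 ± 0.28 did not pass either.

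Rrm2 of CD4 was at 393, 296 and 321 CPM in SOD1 and 355 and 319 in WT at d30 and 21.9 to 108 CPM (median 54.3) at d120, without overlap, and changed by -2.31 ± 0.33 (edgeR adjusted p = 0.00214). Uhrf1 was at 180.0, 197 and 191 CPM in SOD1 and 271 and 177 in WT and then at 30.4 to 77.6 CPM (median 43.4), also apart, with a change of -1.85 ± 0.27 (edgeR adjusted p = 0.00214). Both lay far lower in every d120 library. The helicase activator Cdc45 was at 70.0, 62.2 and 58.2 CPM in SOD1 and 51.5 and 57.5 in WT and then at 0 to 23.2 CPM (median 17.4), a change of -2.07 ± 0.59 (edgeR adjusted p = 0.0400). At the fork, Pola1 was at 50.1, 70.3 and 55.9 CPM in SOD1 and 67.0 and 75.2 in WT and then at 9.92 to 37.9 CPM (median 19.1), without overlap, and changed by -1.39 ± 0.37 (edgeR adjusted p = 0.0303). Rpa1, a subunit of the single-strand binding protein, changed by -1.09 ± 0.25, Rfc5 by -1.10 ± 0.27 and Prim1 by -0.97 ± 0.28, while Prim2 (0.22 ± 0.32) and Pcna (-0.18 ± 0.23) did not pass. For entry into S phase, E2f1 changed by -1.30 ± 0.39 and Tfdp1 by -1.43 ± 0.40. Every d120 library lay below every d30 library in 25 members and above in 0, against 12.5% and 2.27% of genes tested. Depth differed between the days, with 2346044 to 14047347 counts per library at d30 and 837050 to 2239878 at d120, and its part was not tested.

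The number of CD4 calls depended on single libraries. It was 11 without SOD1 d120 1, SOD1 d30 1 or SOD1 d30 2, 9 without SOD1 d30 3, and 7 without WT d30 2 or WT d30 3. Dnmt1 (-1.58 ± 0.35) lost its call without WT d30 2 (-1.64) or WT d30 3 (-1.55). In Treg and CD4 both, 12 members were called lower, 66.7% of the 18 of Treg and 70.6% of the 17 of CD4. They were Mcm2, Mcm3, Mcm5, Mcm6, Mcm7, Pola1, Rpa1, Rrm1, Rrm2, Dnmt1, Uhrf1 and Tfdp1. The share of all genes called lower in both is not given here, so these percentages have no reference. The other 6 of Treg were Mcm4, Mcm10, Pold1, Lig1, Chaf1a and Ccne2, and the other 5 of CD4 were Cdc6, Cdc45, Prim1, Rfc5 and E2f1. A call in one population alone is not a difference between them, which is tested below.

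**Figure D2:**
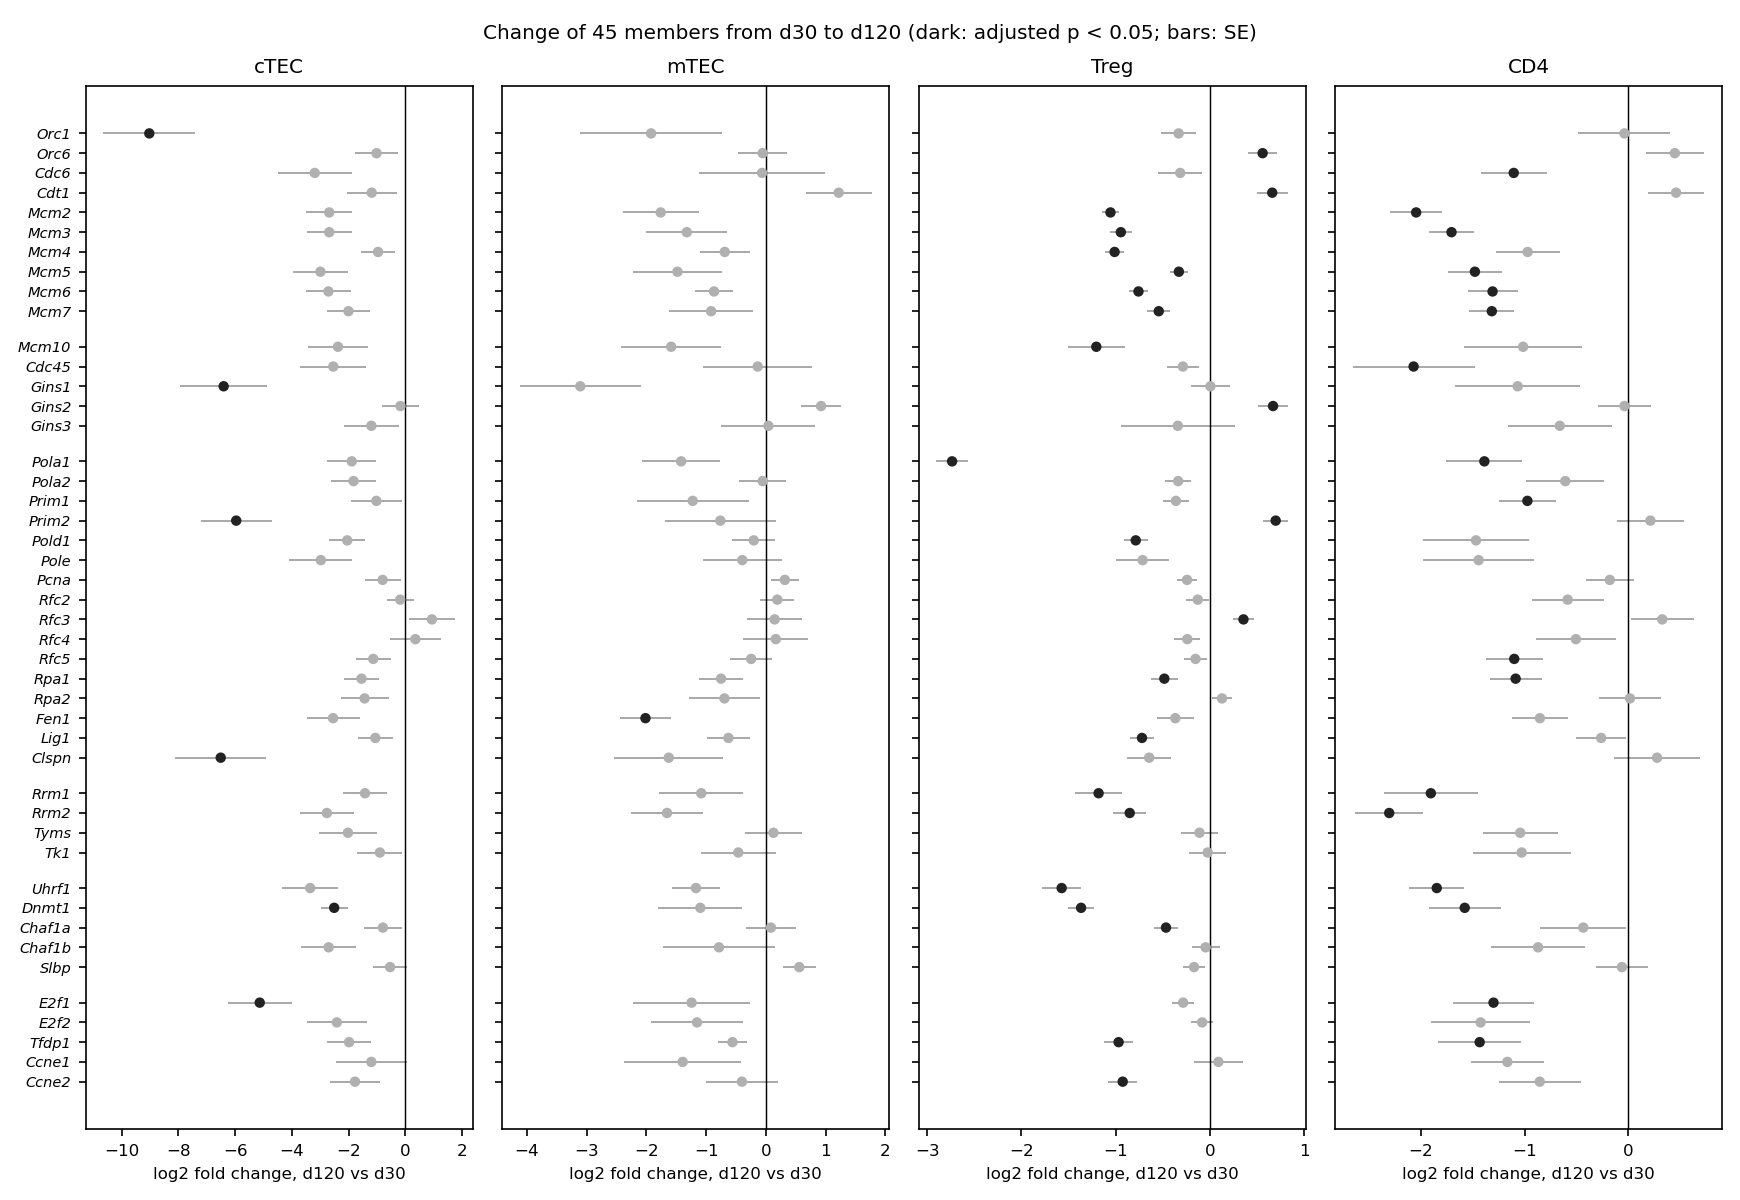
Log2 change from d30 to d120 ± SE on the x axis for all 45 members in cTEC, mTEC, Treg and CD4, ordered by role, with called members in dark. The median is -1.98 in cTEC, -0.69 in mTEC, -0.34 in Treg and -1.03 in CD4. Orc1 of cTEC is drawn at its fitted value, which is no bound because all 6 libraries of d120 were at 0.

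Treg and CD4 were then compared directly, in a fit of the same libraries. At d30, 1 member was higher in Treg and 0 lower, against 2.17% and 2.5% of 15725 genes. It was Uhrf1, at 335 to 574 CPM (median 422) in Treg and 180.0, 197 and 191 CPM in SOD1 and 271 and 177 in WT in CD4, a difference of 1.05 ± 0.24 (edgeR adjusted p = 0.00945). The call was lost without WT CD4 d30 3 (0.96), which left 0 members. The members' median was -0.12, against 0.01 for all genes. Ccne1 (-0.92 ± 0.29) and Rfc5 (-0.42 ± 0.19) came next by p and did not pass.

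At d120, 14 members were higher in Treg and 3 lower, against 10.9% and 6.72% of all genes, with a median of 0.52 against 0.14. Licensing genes, a role of 10 members, made up 6 of the 14. Mcm2 was higher in Treg by 1.17 ± 0.17 (edgeR adjusted p = 4.6e-05), and its lowest Treg library (83.0 CPM) lay above its highest CD4 library (57.9 CPM). Mcm5 (0.94 ± 0.17), Mcm7 (0.92 ± 0.16), Mcm6 (0.78 ± 0.16), Mcm3 (0.75 ± 0.15) and Cdc6 (0.80 ± 0.27) were also higher. Uhrf1, at 95.2 CPM or more in Treg and 77.6 or less in CD4, was higher by 1.36 ± 0.23, and Rrm2 by 1.19 ± 0.26. E2f2, an activating E2F factor, was higher by 1.51 ± 0.34 (edgeR adjusted p = 0.00436). The remaining 5 were Cdc45, Gins2, Prim2, Rfc5 and Chaf1b. Lower in Treg were Clspn, the checkpoint adaptor claspin (-1.55 ± 0.34, edgeR adjusted p = 0.00288), Pola1 (-0.95 ± 0.27) and Lig1 (-0.59 ± 0.17). Without SOD1 CD4 d120 2 the number called was 11, and Pola1 (-0.67) and Lig1 (-0.49) lost their calls. Lig1 also lost its call without SOD1 Treg d120 2 (-0.52) or WT Treg d120 1 (-0.53), and limma voom and a fit without the low-count filter called neither. Depth at d120 was 3241250 to 34151147 counts in Treg and 837050 to 2239878 in CD4. The 10 double-positive thymocyte markers summed to 895 to 1456 CPM in Treg and 543 to 891 in CD4 of d120. These ranges nearly touched, and the levels are not on the scale of the fit, so no separation is drawn from them. The part of depth and of these markers was not tested.

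The change with age itself differed between Treg and CD4 for 2 members, by the interaction of population and age. It was higher in Treg by 1.18 ± 0.25 (edgeR adjusted p = 0.0267) for Mcm5 and by 1.03 ± 0.23 (edgeR adjusted p = 0.0410) for Mcm2, both of which fell in each population. Of all genes, 0.808% had a higher and 0.223% a lower change in Treg. The number of members called was 0 without SOD1 CD4 d30 2 or 3, WT CD4 d30 2 or 3, SOD1 Treg d120 1 or 2, WT Treg d120 2 or 3, or any 1 of the 6 Treg libraries of d30. It was 1 without WT Treg d120 1, 5 without SOD1 CD4 d120 1, WT CD4 d120 3 or SOD1 Treg d120 3, and 7 without WT CD4 d120 1. Neither call was kept with the replicate number as a block. Rrm2 (1.47 ± 0.36) did not pass.

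**Figure D3:**
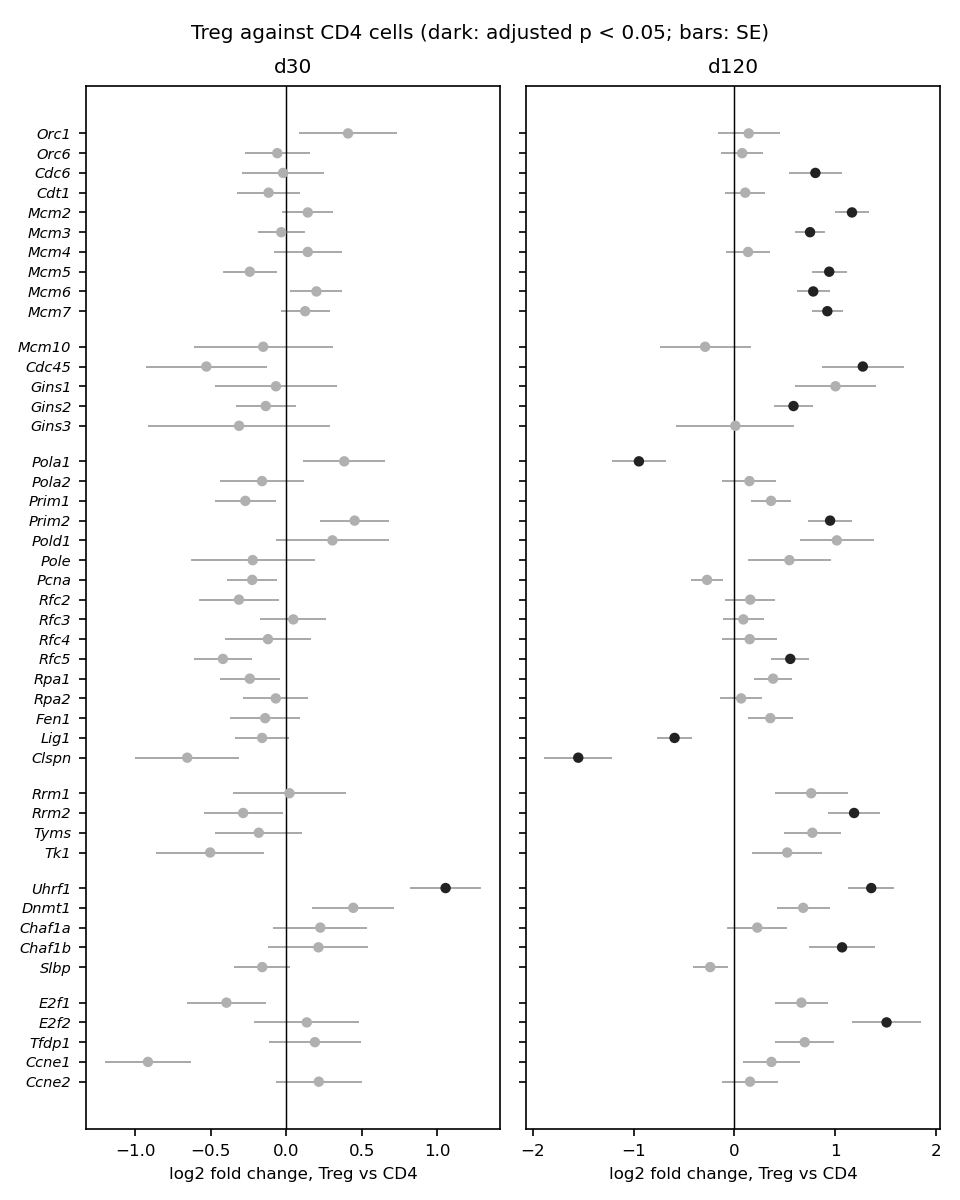
Log2 difference of Treg against CD4 ± SE on the x axis for all 45 members at d30 and at d120, with called members in dark. At d30 the 1 called member is Uhrf1, and at d120 the 14 called to the right include Mcm2 while Clspn, Pola1 and Lig1 are called to the left.

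In cTEC 6 members were lower with age and 0 higher (edgeR adjusted p under 0.05), against 3.02% and 1.61% of 14620 genes tested, 4.63% in either direction. The median change was -1.98, against -0.30 for all genes, and 43 of 45 changes were negative. At an unadjusted p under 0.05 there were 25 members, against 17.9% of all genes. Dnmt1 was at 102, 187 and 118 CPM in SOD1 and 142 and 132 in WT at d30, and at 8.50 to 35.2 CPM (median 22.8) in the 6 libraries of d120. The days did not overlap, and the change was -2.51 ± 0.48 (edgeR adjusted p = 0.0131). Orc1, the ATPase subunit of the origin complex, was at 5.42, 11.7 and 16.7 CPM in SOD1 and 8.91 and 15.7 in WT at d30 and at 0 in all 6 libraries of d120. Against a floor of 3 counts over the d120 group (0.276 CPM), it was at least 42.3-fold lower (edgeR adjusted p = 0.0188).

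The other 4 members called in cTEC were also at or near 0 in most d120 libraries. E2f1 was at 20.3, 27.3 and 21.4 CPM in SOD1 and 28.7 and 29.6 in WT at d30 and 0 to 2.55 CPM (median 0.193) at d120, without overlap, and its fitted change was -5.13 ± 1.13 (edgeR adjusted p = 0.0245). Prim2 was at 26.2, 33.9 and 28.6 CPM in SOD1 and 26.5 and 28.4 in WT at d30 and at 12.8, 10.8 and 0.668 CPM in SOD1 and 0 in all WT libraries of d120 (-5.96 ± 1.25, edgeR adjusted p = 0.0255). Gins1 (-6.40 ± 1.52) and Clspn (-6.51 ± 1.60) had counts in 1 of the 6 libraries of d120 each. Some members of higher level lay apart by day but scattered at d120 and did not pass. Rrm2 was at 180.3, 363 and 308 CPM in SOD1 and 222 and 292 in WT at d30 and 0 to 74.8 CPM (median 29.0) at d120 (-2.77 ± 0.95). Every d120 library lay below every d30 library in 28 members and above in 0, against 11.9% and 1.87% of genes tested. Depth was 4575299 to 16776303 counts at d30 and 1269529 to 3083181 at d120, and its part was not tested.

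Single libraries moved the cTEC result. SOD1 cTEC d120 3 stood apart, with Rfc3 at 498 CPM and Rfc4 at 303 CPM. It had 23 of 45 members at 0, against 3 to 10 in the other 5 libraries of d120, and detected 7627 genes, against 13264 to 15679. Pcna was at 2.67 CPM there and at 83.9 to 151 in the others, and Tfdp1 at 0 there and at 27.2 to 52.2 in the others. Without it 16 members were called. The number was 11 without SOD1 d120 2, 2 without WT d120 3, 1 without SOD1 d30 1, SOD1 d30 3 or WT d30 3, and 0 without SOD1 d30 2 or WT d30 2, or with the replicate number as a block. Dnmt1 lost its call without SOD1 d30 2 (-2.42) or WT d30 2 (-2.48). Orc1, E2f1, Prim2, Gins1 and Clspn each lost theirs without any 1 of the 5 libraries of d30. E2f1 and Prim2 also lost theirs without WT d120 1 or 3, Gins1 without SOD1 d120 1, WT d120 2 or WT d120 3, and Clspn without SOD1 d120 1 or any 1 WT library of d120. Over the fits that lost a call, the changes were -5.40 to -4.79 for E2f1, -6.23 to -5.79 for Prim2, -7.36 to -6.07 for Gins1 and -6.76 to -6.23 for Clspn.

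In mTEC 1 member was lower with age and 0 higher (edgeR adjusted p under 0.05), against 1.06% and 2.09% of 18919 genes, 3.16% in either direction. The median was -0.69, against -0.08 for all genes. The member was Fen1, the flap endonuclease of Okazaki fragments, at 23.9 to 46.2 CPM (median 35.4) at d30 and 3.76 to 33.6 CPM (median 7.85) at d120. One SOD1 library of d120 lay inside the range of d30, and the change was -2.02 ± 0.43 (edgeR adjusted p = 0.0189). The call was lost, leaving 0 members, without SOD1 d30 2, SOD1 d30 3, WT d30 1 or WT d30 3 (-2.06 to -1.88). The number was 4 without WT d120 3 and 2 without SOD1 d30 1, the library of 15135 counts, in which 37 members were at 0. Gins1 (-3.11 ± 1.01) and Uhrf1 (-1.17 ± 0.40) did not pass. Every d120 library lay below every d30 library in 1 member and above in 1 (Gins2), against 0.851% and 3.03% of genes. Over the 4 sorted populations, 29 members had a negative change with age in each, Cdt1 in 1 and Rfc3 in 0. The share of all genes with a negative change in each is not given here.

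Between mTEC and cTEC of d30, edgeR called 0 members, against 19% of 20223 genes in either direction. At an unadjusted p under 0.05 there were 7 members (29.1% of genes). DESeq2 called 1, higher in mTEC, and limma voom 39, of which 2 were higher and 37 lower in mTEC. The shares of all genes called by these methods are not given here. The median was -1.10, against 0.10 for all genes. The 10 double-positive thymocyte markers summed to 79.4 to 172 CPM in mTEC and 737 to 1364 in cTEC of d30, and the 7 leukocyte markers to 201 to 308 in mTEC and 1652 to 2294 in cTEC. Neither sum overlapped, and their part was not tested. Tfdp1 had the smallest p, at 1.55 ± 0.55 (edgeR adjusted p = 0.0503), and Mcm6 (-1.49 ± 0.62) and Pcna (-1.22 ± 0.52) followed. At d120, 6 members were higher in mTEC and 0 lower, against 21% and 3.28% of all genes, with a median of 0.30 against 0.65. Tfdp1 was at 131 to 384 CPM (median 299.7) in mTEC and 0 to 52.2 CPM (median 32.5) in cTEC, without overlap, a difference of 3.14 ± 0.54 (edgeR adjusted p = 0.000243). Pold1 was at 23.5 to 98.1 CPM (median 68.1) and 3.40 to 16.7 CPM (median 10.1), also apart, a difference of 2.80 ± 0.51 (edgeR adjusted p = 0.000407). Pole, the catalytic subunit of polymerase epsilon, was higher by 3.46 ± 0.94, Prim2 by 4.21 ± 1.47 and Pola2 by 1.67 ± 0.61. Orc1, at 0 in cTEC of d120, was at 0, 3.02 and 0 CPM in SOD1 and 0.388, 1.65 and 0 in WT of mTEC. Its mean there of 0.842 CPM was at least 3.05-fold higher against the same floor of 0.276 CPM (edgeR adjusted p = 0.0482). Its median of 0.194 CPM lay below that floor.

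Without SOD1 mTEC d120 2 or WT mTEC d120 1 the number called at d120 was 3. Prim2 lost its call without either of these, SOD1 cTEC d120 3 or any 1 WT cTEC library of d120, and over all fits that lost it the difference was 0.97 to 4.39. Pola2 lost its call without SOD1 cTEC d120 1, any 1 WT cTEC library or any 1 mTEC library of d120 other than SOD1 3 (1.41 to 2.10 over the fits that lost it). Orc1 lost its call without any 1 cTEC library of d120, SOD1 mTEC d120 2, WT mTEC d120 1 or WT mTEC d120 2. It was also lost with DESeq2, limma voom, median-of-ratios scaling, no low-count filter, the default dispersion of edgeR 4, the low-depth libraries left out or a replicate block. Over these 16 fits its fitted difference was 1.13 to 5.99, which is no bound. The change with age differed between mTEC and cTEC in 0 members by edgeR, against 0.737% of genes. There were 12 members at an unadjusted p under 0.05 (11.6% of genes), limma voom called 4, and edgeR called 2 without SOD1 cTEC d120 2.

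In the cultures labelled Treg nearly all members were higher at both times of activation than at T0. From T0 to T2, 40 members rose and 1 fell, against 23.8% and 34.3% of 11787 genes tested, 58.1% in either direction (edgeR adjusted p under 0.05). From T0 to T20, 41 rose and 1 fell, against 24.1% and 34.1%, 58.2% in either direction. The median changes were 2.37 and 2.17, against -0.24 and -0.25 for all genes, and 39 members rose at both times. Both comparisons share the 6 libraries of T0, and the share of all genes that rose at both times is not given here. Every T2 library lay above every T0 library in 33 members, against 9.79% of genes, and every T20 library in 33, against 14.9%. By role, the members that rose at T2 were 8 of 10 for licensing, 4 of 5 for helicase activation, 15 of 16 at the fork, 4 of 4 for nucleotide supply, 5 of 5 for chromatin and 4 of 5 for S phase entry.

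Licensing and helicase genes differed in size of change. Mcm5 was at 0 to 24.9 CPM (median 14.2) at T0, 152 to 300.4 CPM (median 216) at T2 and 121 to 242 CPM (median 178) at T20. Every activated library lay above every T0 library, and the changes were 3.77 ± 0.34 and 3.55 ± 0.34. Cdc6 rose by 3.90 ± 0.47 and 4.17 ± 0.47, and Mcm6 by 2.47 ± 0.21 and 2.17 ± 0.21. Mcm7 (0.40 ± 0.21) and Cdt1 (0.45 ± 0.22) did not pass at T2 and passed at T20, at 0.60 ± 0.21 and 0.53 ± 0.22. Cdc45 was at 0 to 3.56 CPM (median 1.88), 16.8 to 95.6 CPM (median 61.8) and 50.8 to 70.1 CPM (median 64.2), again apart from T0, and rose by 4.88 ± 0.41 (edgeR adjusted p = 6.42e-08) and 4.91 ± 0.41. Gins2 did not pass at either time (-0.02 ± 0.25 and 0.25 ± 0.25).

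All 4 nucleotide genes rose. Rrm2 was at 3.56 to 38.3 CPM (median 6.52) at T0, 219 to 437 CPM (median 268) at T2 and 224 to 317 CPM (median 274) at T20, apart from T0, with changes of 4.72 ± 0.38 (edgeR adjusted p = 3.67e-08) and 4.58 ± 0.37. Rrm1 rose by 3.98 ± 0.31 and 3.73 ± 0.31, Tyms by 4.07 ± 0.33 and 3.89 ± 0.33, and Tk1 by 3.78 ± 0.34 and 3.82 ± 0.34. Of the chromatin genes, Uhrf1 was at 3.56 to 28.1 CPM (median 8.96), 185 to 326 CPM (median 214) and 144 to 254 CPM (median 186), also apart, and rose by 4.14 ± 0.34 and 3.94 ± 0.34. Chaf1a rose at T2 (0.81 ± 0.30) and did not pass at T20 (0.61 ± 0.30). Tfdp1 had the smallest p at T2, at 13.4 to 33.9 CPM (median 20.6), 152 to 356 CPM (median 184) and 121 to 208 CPM (median 174). It lay apart from T0 and rose by 3.32 ± 0.23 (edgeR adjusted p = 1.26e-08) and 3.06 ± 0.23. Its partner E2f1 was at 17.4 to 32.0 CPM (median 27.8), 14.03 to 43.5 CPM (median 23.7) and 23.1 to 34.5 CPM (median 25.4), overlapping throughout, and did not pass (-0.19 ± 0.27 and 0.06 ± 0.27).

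At the fork, the clamp loader subunit Rfc4 rose by 3.07 ± 0.28 and 3.07 ± 0.28, and Rpa1 was the 1 member called lower. Rpa1 was at 188 to 240.3 CPM (median 232) at T0, 97.4 to 211 CPM (median 128) at T2 and 107 to 183 CPM (median 144) at T20, with overlap at T2 and none at T20. Its changes were -0.63 ± 0.21 (edgeR adjusted p = 0.0139) and -0.59 ± 0.20 (edgeR adjusted p = 0.0194). Both calls were lost without the low-count filter (-0.17 and -0.11), without the libraries of low depth (-0.34 and -0.29), and without SOD1 T0 3 (-0.37 and -0.36), WT T0 1 (-0.35 and -0.34) or WT T0 3 (-0.34 and -0.34). The T2 call was also lost without SOD1 T2 3 (-0.40), and the T20 call without SOD1 T20 1 (-0.56), SOD1 T20 3 (-0.44) or WT T20 2 (-0.21). Between T2 and T20, edgeR called 0 members and 0% of all genes. There 1 member had an unadjusted p under 0.05 (3.88% of genes), and DESeq2 and limma voom called 0.

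Markers differed between T0 and the activated cultures. The 8 measured Treg markers summed to 83.4 to 520 CPM at T0 and 1858 to 5557 at T2, with Foxp3 at a mean of 11.3 and 131 CPM. These markers were therefore far lower at T0 than at T2, which does not show whether the Treg label was met at either time. The cultures are called by their label. The 8 genes of early T cell activation summed to 39.2 to 394 CPM and 1735 to 4731. Library depth was 404578 to 2392534 counts at T0, 171619 to 5100377 at T2 and 214318 to 19699330 at T20. The part of these in the members' change was not tested.

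**Figure D4:**
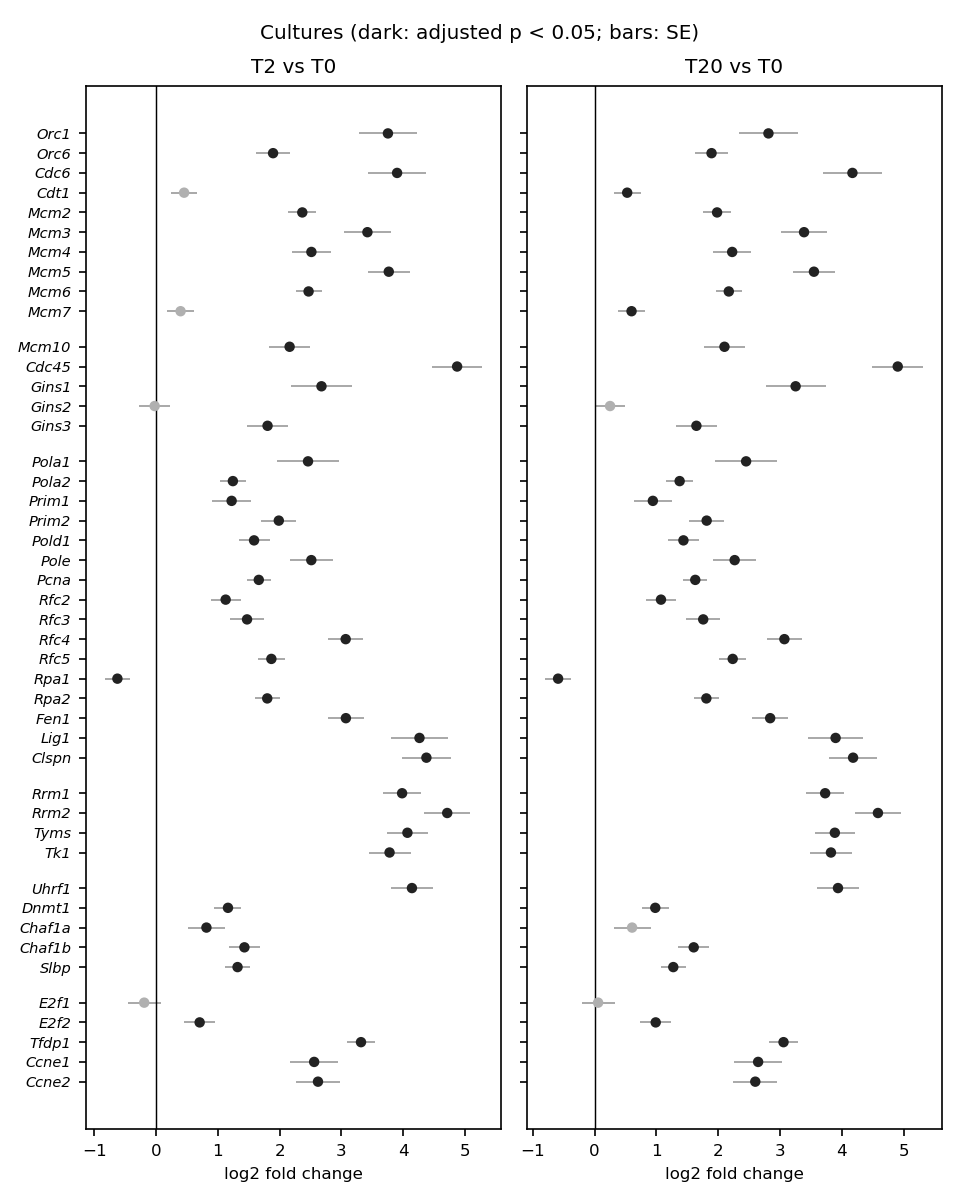
Log2 change ± SE on the x axis for all 45 members at T2 and T20 of culture against T0, with called members in dark. The median is 2.37 at T2 and 2.17 at T20, and Rpa1 is the 1 member called to the left of 0 at both times.

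Between genotypes, 0 members were called in the 12 comparisons of SOD1 with WT (edgeR, and limma in whole thymus). In whole thymus of d120, 0.0831% of 14437 genes were called, and 3 members had an unadjusted p under 0.05 (3.42% of genes) in limma on log2(TPM + 1). The median difference was -0.17, against -0.03 for all genes, and 41 of 45 were negative. By role the medians were -0.20 for licensing, where 10 of 10 were negative, -0.18 for helicase activation, -0.08 at the fork, -0.26 for nucleotide supply, -0.17 for chromatin and -0.15 for S phase entry. Uhrf1 was at 159, 167 and 149 TPM in SOD1 and 201, 193 and 197 in WT. All SOD1 libraries were lower, at -0.31 ± 0.081 (limma adjusted p = 0.999). Mcm5 was at 123, 133 and 128 TPM in SOD1 and 155, 159 and 156 in WT, also apart (-0.29 ± 0.078). Mcm2 was at 114, 114 and 98.3 TPM in SOD1 and 136, 122 and 138 in WT, apart as well (-0.28 ± 0.10). Cdc45 had the lowest difference of the members, -0.35 ± 0.21, with overlapping genotypes. In 15 members every SOD1 library was below every WT library and in 0 above, against 4.22% and 4.18% of genes. These were Orc1, Cdc6, Cdt1, Mcm2, Mcm4, Mcm5, Mcm6 and Mcm7 of licensing, Gins3, Pola2, Lig1, Clspn, Uhrf1, Dnmt1 and Tfdp1.

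In Treg of d120 most members had the other sign. Again edgeR called 0 members and 0.0135% of genes, and 5 members had an unadjusted p under 0.05 (6.74% of genes). The median was 0.14, against 0.02 for all genes, and 37 of 45 were positive. The SOD1 libraries did not all share this sign. SOD1 3 lay below every WT library in Rrm2 (89.5 CPM against 117 to 163), Tyms (57.1 against 71.1 to 86.3) and Pcna (221 against 247 to 266), among others. In these genes SOD1 1 and SOD1 2 lay above every WT library. The d120 column names number the SOD1 libraries 1, 2 and 4 and the WT libraries 3, 5 and 6, in each sorted population. A difference between low and high numbers is therefore partly confounded with genotype. Fen1 was at 130, 127 and 119 CPM in columns 1 to 3 and at 44.2, 70.5 and 57.2 in columns 4 to 6. The 4 members listed below were apart by genotype instead. E2f1, an activating E2F factor, was at 50.9, 51.0 and 41.3 CPM in SOD1 and 27.7, 25.04 and 23.2 in WT, without overlap (0.77 ± 0.16, edgeR adjusted p = 0.476). Mcm2 was at 189, 171 and 129.9 CPM in SOD1 and 120.2, 104 and 83.0 in WT, also apart (0.52 ± 0.12, edgeR adjusted p = 0.587). Mcm5 was at 292, 257 and 186 CPM in SOD1 and 183, 156 and 157 in WT, apart by a narrow gap (0.40 ± 0.13). DESeq2 called 2 members, E2f1 and Mcm2, and limma voom 0. In 4 members (E2f1, Gins2, Mcm2 and Mcm5) every SOD1 library was above every WT library and in 0 below, against 4.56% and 3.8% of genes. At d30 the signs were otherwise, with 0 members above and 5 below (Chaf1a, Clspn, Dnmt1, Mcm2 and Mcm3), against 5.48% and 5.91% of genes. The change of the genotype difference with age in Treg was called in 0 members by edgeR, DESeq2 and limma voom, with 4 at an unadjusted p under 0.05 (3.64% of genes).

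In the other sorted groups edgeR called 0 members between genotypes. At d30 no member of cTEC (0.321% of genes), mTEC (0.359%), Treg (1.48%) or CD4 (0.28%) had an unadjusted p under 0.05. At d120 there were 4 in cTEC (9.08%), 3 in mTEC (8.17%) and 1 in CD4 (6.22%). By adjusted p, 0.00684% of genes were called in cTEC, 0.00529% in mTEC and 0.00801% in CD4 at each age, and DESeq2 called 1 member, Prim2 of cTEC d120. In the 11 genotype comparisons on counts, limma voom called 0 members. In mTEC of d120, Fen1 was at 33.6, 13.1 and 11.2 CPM in SOD1 and 4.50, 3.91 and 3.76 in WT, apart (2.24 ± 0.60). In 6 members of mTEC d120 every SOD1 library was above every WT library and in 0 below, against 4.64% and 3.47% of genes. In cultures, edgeR called 0 members at T0 (0.0679% of genes), T2 (0.0933%) and T20 (0.0933%), with 9, 2 and 0 members at an unadjusted p under 0.05 (5.34%, 8.78% and 2.43% of genes). At T0, Tyms was at 4.47, 4.65 and 5.50 CPM in SOD1 and 10.7, 22.7 and 17.7 in WT, apart (-1.91 ± 0.50, edgeR adjusted p = 0.455). Whether the genotype difference changed with age or activation gave 0 called members in edgeR in the other 5 tests, with 1 at an unadjusted p under 0.05 in cTEC (3.76% of genes), 2 in mTEC (4.14%), 0 in CD4 (2.22%), 10 at T2 (4.12%) and 4 at T20 (3.77%).

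**Figure D5:**
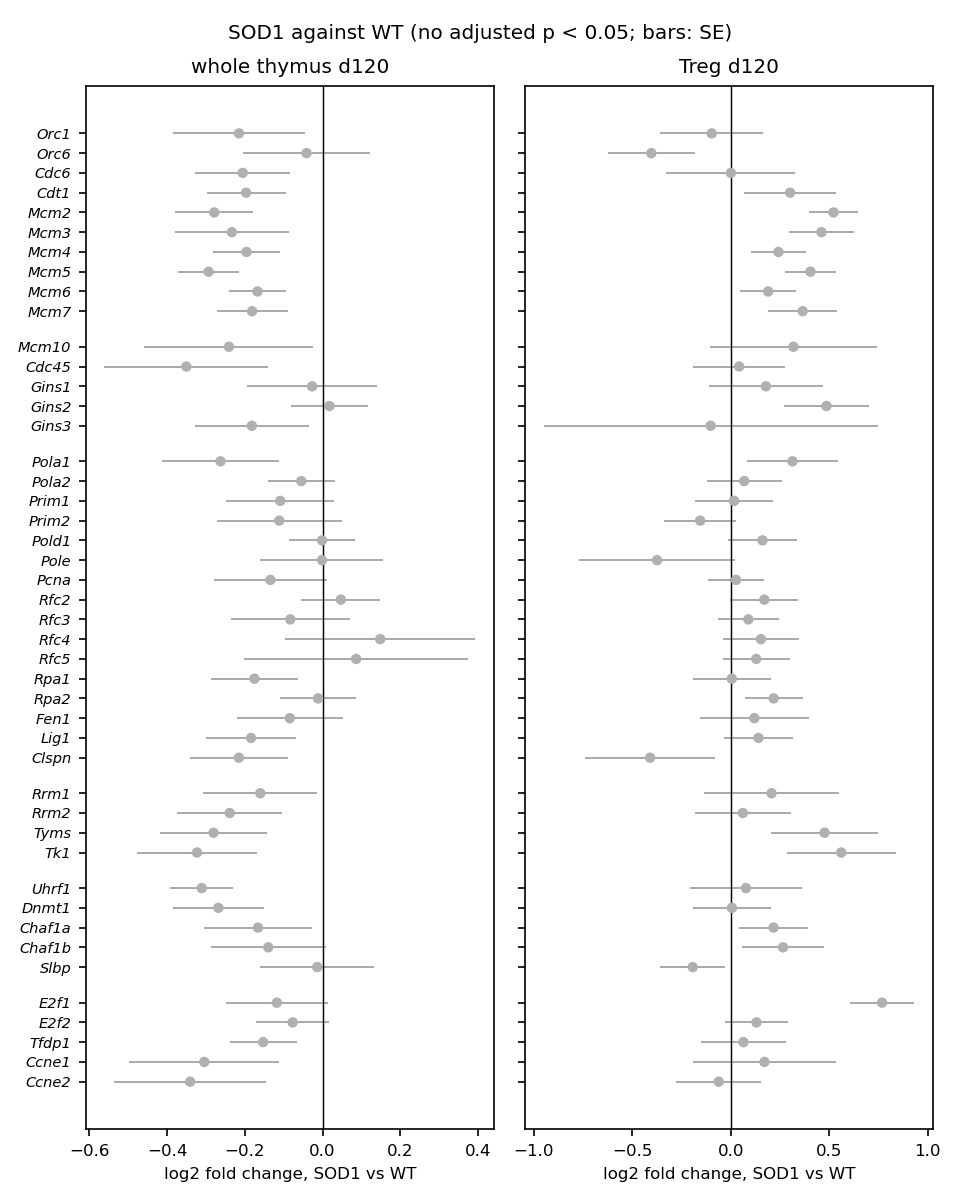
Log2 difference of SOD1 against WT ± SE on the x axis for all 45 members in whole thymus and in Treg of d120. The median is -0.17 in thymus and 0.14 in Treg, and no member is called in either.

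Another 98 genes, in lists of replication machinery, nucleotide supply, chromatin assembly, G1/S regulators and mitosis, were counted beside the members. With age, edgeR called 41 of 98 lower and 6 higher in Treg, 35 and 0 in CD4, 13 and 1 in cTEC, and 2 and 1 in mTEC. The shares of all genes lower and higher were 13.8% and 16.1% in Treg, 5.92% and 4.66% in CD4, 3.02% and 1.61% in cTEC, and 1.06% and 2.09% in mTEC. In Treg the smallest p of each list belonged to Tipin, which protects stalled forks (-1.02), the purine enzyme gene Gart (-1.73), Cdca7 (-1.13), E2f4, a repressive E2F factor (0.60), and the mitotic kinesin Kif11 (-1.26). In CD4 they belonged to Timeless, the partner of Tipin (-1.67), the folate enzyme gene Shmt1 (-2.21), Cdca7 (-2.33), the S phase cyclin gene Ccna2 (-1.92) and the mitotic ubiquitin enzyme gene Ube2c (-2.43). Of 20 mitosis genes, 17 fell in CD4, 11 in Treg, 6 in cTEC and 2 in mTEC, and 1 rose in Treg. The proliferation marker Mki67 did not pass in Treg (-0.43 ± 0.16) or CD4 (-0.55 ± 0.30), while the topoisomerase gene Top2a fell in both (-1.08 ± 0.16 and -1.29 ± 0.25). The 1 gene that rose in each epithelium was the transcription factor gene Myc, at 1.84 in cTEC and 2.01 in mTEC.

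Between Treg and CD4 of d120, 20 of the 98 were higher in Treg and 3 lower, against 10.9% and 6.72% of all genes. The G1/S regulators gave 9 of the 20, led by Cdk6, a cyclin D kinase (2.25 ± 0.33), and mitosis gave 2, led by the cyclin gene Ccnb1 (1.51 ± 0.40). The size of the G1/S list is not given here, so its count has no reference. Mki67 (-0.18 ± 0.23) and Top2a (0.00 ± 0.20) did not pass. In cultures 75 of 98 rose and 5 fell at T2, against 23.8% and 34.3% of all genes, and 77 and 5 at T20, against 24.1% and 34.1%. All 20 mitosis genes rose at both times, Mki67 by 5.37 ± 0.49 and 4.99 ± 0.48. Between genotypes 0 of the 98 were called in whole thymus (limma) or in Treg of d120 (edgeR).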

How the data were processed

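Bulk RNA was made into libraries with a low-input full-length kit (SMARTseq v4), per the labels' protocols. Sorted cells and cultures were deposited by the authors as raw gene counts and whole thymus as TPM. The submitters' processing notes name mm10 and DESeq2 without a version or role, and no aligner, counter or use of strand is stated in the sources used here. Columns were matched to libraries by the sample descriptions or titles that carry the column name. All sorted d30 columns are named SOD1, WT libraries included, and genotype was taken from the genotype label.

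Counts were tested with edgeR 4.0.16 in R 4.3.3: TMM scaling, a filter on low counts by group, a quasi-likelihood fit with the abundance-trend dispersion, and Benjamini-Hochberg adjustment over all genes tested. A moderated gene-wise dispersion is given as an alternative, and the choice between them was made after results with both had been seen. Each population, each pair of populations and the cultures were fitted with genotype and age or time as groups. Whole thymus was tested with limma 3.58.1 (trend) on log2(TPM + 1), leaving out genes whose mean was under 1 TPM, so its changes are on that scale. The fitting functions were also run on simulated data with known changes. The outcome is not given here, and the simulated setting differs from the main fit, so it does not vouch for the calls above. DESeq2 1.42.0, limma voom with quality weights, other scalings and filters, a replicate block, omission of the 6 libraries of low depth and of each library in turn were alternatives. Genes were named by rule, the 8 members of lowest adjusted p among those called in each direction or, where none was called, the 3 of lowest p. Further members are named to complete a role, and the members and lists were chosen with earlier results of these data known. Sod1 counts do not separate the human transgene from mouse Sod1. Depth limits members near 0 in cTEC and in the shallow libraries.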

Additional observations from a re-analysis of the deposited data

Results flagged for a closer look

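The change with age differed between Treg and CD4 in 2 members by a test of the difference itself, the interaction of population and age in edgeR. For Mcm5, a helicase subunit, the change in Treg exceeded that in CD4 by 1.18 on the log2 scale, and for Mcm2 by 1.03. Both genes had a negative change in each population. Mcm5 lost this call in 15 and Mcm2 in 18 of the alternative fits, over which the differences were 1.13 to 1.22 and 0.93 to 1.09. Summed levels of the double-positive thymocyte markers were lower at d120 than at d30 in every library of both populations, and their part was not tested.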

How the results depend on the processing

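Numbers of members called moved by more than 1.5 times as follows. With age in cTEC (6 called) DESeq2 gave 18, limma voom 25, no low-count filter 13, edgeR 4's default dispersion 19, the moderated gene-wise dispersion 13 and omission of low-depth libraries 16, all lower. With age in mTEC (1) the same alternatives other than DESeq2 gave 8, 2, 10, 4 and 2. For mTEC against cTEC at d30 (0) DESeq2 gave 1, median-of-ratios scaling 1, limma voom 39, no filter 4, default dispersion 13, moderated dispersion 1 and omission of low-depth libraries 8, and for its interaction with age (0) limma voom gave 4 and that omission 1. For Treg against CD4 at d30 (1) DESeq2 gave 2, limma voom 10, and default and moderated dispersion 2 each. Its interaction with age (2) gave 9 with DESeq2, 1 with median-of-ratios scaling, 9 with limma voom, 4 without the filter, 4 with default and 8 with moderated dispersion. Between genotypes (0) DESeq2 gave 1 in cTEC and 2 in Treg of d120, moderated dispersion 1 in mTEC of d120, and no filter 1 in cultures at T0 and 1 for the interaction at T2. Leaving out 1 library gave 0 to 16 for age in cTEC, 0 to 4 in mTEC, 7 to 20 in CD4 and 20 to 25 in Treg, 3 to 8 for mTEC against cTEC at d120 and 0 to 2 for its interaction. It gave 0 to 1 for Treg against CD4 at d30, 11 to 20 at d120, 0 to 7 for that interaction and 39 to 42 at T2 and T20. The cause of these moves was not tested, and the shares of all genes called under the alternatives, here and above, are not given. Of the named genes' values under alternatives, 2259 kept their side of the threshold, 155 lost and 31 gained a call, and 0 reversed. Median-of-ratios scaling shifted the median of all genes by 0.16 for mTEC against cTEC at d30 and by -0.22 for its interaction.

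The main fits did not pair libraries by replicate number, because not every same-numbered pair correlated above a chosen cut-off of 0.1. Missing that cut-off does not show that the libraries were unpaired. Treg and CD4 libraries of one number did correlate more (0.057 to 0.230) than those of different numbers (-0.140 to 0.028), a hint from the data and not the design. The WT cTEC libraries of d30 carry other numbers than the libraries beside them in the column numbering, so blocks across cTEC and mTEC may join unlike libraries there. With the number as a replicate block, 0 members were called with age in cTEC, 3 for mTEC against cTEC at d120 and 0 for the interaction of Treg and CD4 with age. The block gave 24 for age in Treg, 18 in CD4, 16 for Treg against CD4 at d120 and 41 at each culture time.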
